A study of Homo sapiens with 124 samples.

Results

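The antigen receptor loci were followed across single cells mapped for contact with the nuclear lamina. They are the immunoglobulin heavy chain locus IGH, the light chain loci IGK and IGL, and the T cell receptor loci TRA with TRD inside it, TRB and TRG. Members were all bins of 100 kb in the deposited table that overlap the hg19 interval of a locus, which gave 55 bins, of which 52 were usable, among 26426 usable bins in all. Usable bins had a number for all cells, and at least 1 cell above 0. Flanks were the bins within 1 Mb on either side, and 97 of 111 were usable. The locus intervals come from general knowledge of hg19 and not from an annotation of that build.

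The cells were haploid KBM7 cells of clone 14, a near-haploid myeloid line from chronic myeloid leukaemia, and they expressed a fusion of LaminB1 with Dam, a bacterial enzyme that methylates adenine in the motif GATC. The fusion was switched on with 0.5 nM Shield1 for 15 h, and the smallest 2% of cells positive for both Fucci cell cycle markers were sorted one by one. All cells formed 1 group with no control group, and the table held columns for 118 of the 124 labelled samples. Being 1 clone limits the cells as a model, and the labels do not say whether they came from separate cultures, so p-values measure the spread between these cells only.

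Antigen receptor genes are assembled in lymphocytes by V(D)J recombination, in which the RAG1 and RAG2 recombinase joins variable (V), diversity (D) and joining (J) segments that lie in long arrays beside the constant (C) genes. B cells rearrange IGH, IGK and IGL, and T cells rearrange the T cell receptor loci. Outside the lineage that uses them the loci are mostly not rearranged, and whether they were rearranged in these cells was not measured here. In B cell precursors, immunoglobulin loci are known to leave the nuclear periphery before they rearrange. KBM7 cells are myeloid, and no expression was measured here.

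The loci differ in make-up. In the RefSeq gene table of GRCh38.p14, used only for names and gene order, IGH had 48 V, 27 D and 6 J segments and 9 C genes. IGK had 44 V and 5 J segments and 1 C gene, and IGL had 37 V and 7 J segments and 4 C genes. TRA with TRD had 49 V, 3 D and 62 J segments and 2 C genes. TRB had 44 V, 2 D and 13 J segments, and TRG had 6 V and 5 J segments, each with 2 C genes. The constant end lies at the lower coordinate in IGH, IGK and TRG and at the higher coordinate in TRA, TRB and IGL. Other protein-coding genes sit among the segments, such as the trypsinogen genes PRSS1 and PRSS2 in TRB, the odorant receptor genes OR10G2, OR4E2 and OR4E1 in TRA, and PRAME and VPREB1 in IGL. VPREB1 encodes part of the surrogate light chain of B cell precursors.

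DamID reads contact only through GATC motifs, so the 250 bases upstream of 1 gene from each of these 3 loci are shown with GATC in capitals. RefSeq had an upstream sequence for 8 of the 12 protein-coding genes listed within the 6 loci. PRSS1 lies at GRCh38.p14 chr7:142749222-142749471, plus strand, OR4E2 at chr14:21653585-21653834, plus strand, and VPREB1 at chr22:22244536-22244785, plus strand. These positions are in another build than the bins and are not comparable with them.
PRSS1: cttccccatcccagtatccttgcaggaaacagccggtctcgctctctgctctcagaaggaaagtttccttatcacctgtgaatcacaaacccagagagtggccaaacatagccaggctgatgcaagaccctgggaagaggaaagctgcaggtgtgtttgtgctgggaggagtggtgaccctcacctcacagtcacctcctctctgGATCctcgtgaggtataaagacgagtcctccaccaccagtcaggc
OR4E2: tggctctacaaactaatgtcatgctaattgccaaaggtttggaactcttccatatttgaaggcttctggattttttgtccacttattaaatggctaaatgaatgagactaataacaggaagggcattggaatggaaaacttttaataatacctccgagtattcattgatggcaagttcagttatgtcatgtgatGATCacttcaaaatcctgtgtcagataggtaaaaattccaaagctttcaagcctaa
VPREB1: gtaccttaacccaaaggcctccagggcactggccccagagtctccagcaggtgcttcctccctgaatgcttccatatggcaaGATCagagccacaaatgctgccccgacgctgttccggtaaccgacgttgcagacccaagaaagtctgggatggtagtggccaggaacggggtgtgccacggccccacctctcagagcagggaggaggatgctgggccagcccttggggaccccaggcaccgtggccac
The 3 windows shown hold 1 motif each, which reads the same on both strands. Of the 8 windows, 5 held a GATC, and those of PRSS2, OR10G2 and OR4E1 held none, while 35.8% of all 35116 upstream windows of this length held at least 1. The 3 genes sit in loci with unequal contact, and a motif in these letters says nothing of the contact of the bin.

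Each deposited value is a ratio of observed to expected reads, and a bin counted as in contact in a cell at a value of 1 or more. Contact frequency is given per bin, as a percentage of 118 cells, with an exact Clopper-Pearson 95% interval that covers the counting of cells only. Whole reads recovered from the ratios ranged from 28372 to 385661 between cells (median 135782), and the contact share of a cell was 33.0% ± 5.47 of usable bins (SD, n = 118). In 14 cells a value of 1 stood for under 3 reads in the median bin. Cells numbered 1 to 94 and cells numbered 96 to 124 (90 and 28 cells) had mean contact shares of 31.9% and 36.5% over all usable bins. Bins at above 0 to under 20% were at 4.13% and 10.9% in these sets. Those at 20 to under 80% were at 52.4% and 60.8%, and those at 80% or more at 86.1% and 85%. Values within the sets are therefore given beside the main results. The sets are not groups of the study, and the part of this split in each result was not tested.

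None of the 52 bins was a frequent contact. No bin of a receptor locus reached 80% of cells, against 15.1% of all usable bins. At 20 to under 80% there were 8 bins, or 15.4%, against 33.9% of all usable bins. At above 0 to under 20% there were 27 bins, or 51.9%, against 28.8%, and 17 bins, or 32.7%, had no contact in any cell, against 22.3%. The median frequency was 2.97% over the receptor bins and 17.8% over all usable bins. The order was TRG with 19.8% ± 20.1 of its usable bins in contact per cell, TRA with 17.8% ± 22.2, IGK with 14.9% ± 18.8, TRB with 13.0% ± 19.1, IGH with 1.37% ± 4.22 and IGL with 0.0847% ± 0.921 (SD, n = 118 each). Within cells 1 to 94 the means were 18.5% for TRG, 12.4% for TRA, 10.7% for IGK, 8.89% for TRB, 0.855% for IGH and 0% for IGL. Within cells 96 to 124 they were 23.8% for TRG, 35.1% for TRA, 28.2% for IGK, 26.2% for TRB, 3.02% for IGH and 0.357% for IGL.

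**Figure D1:**
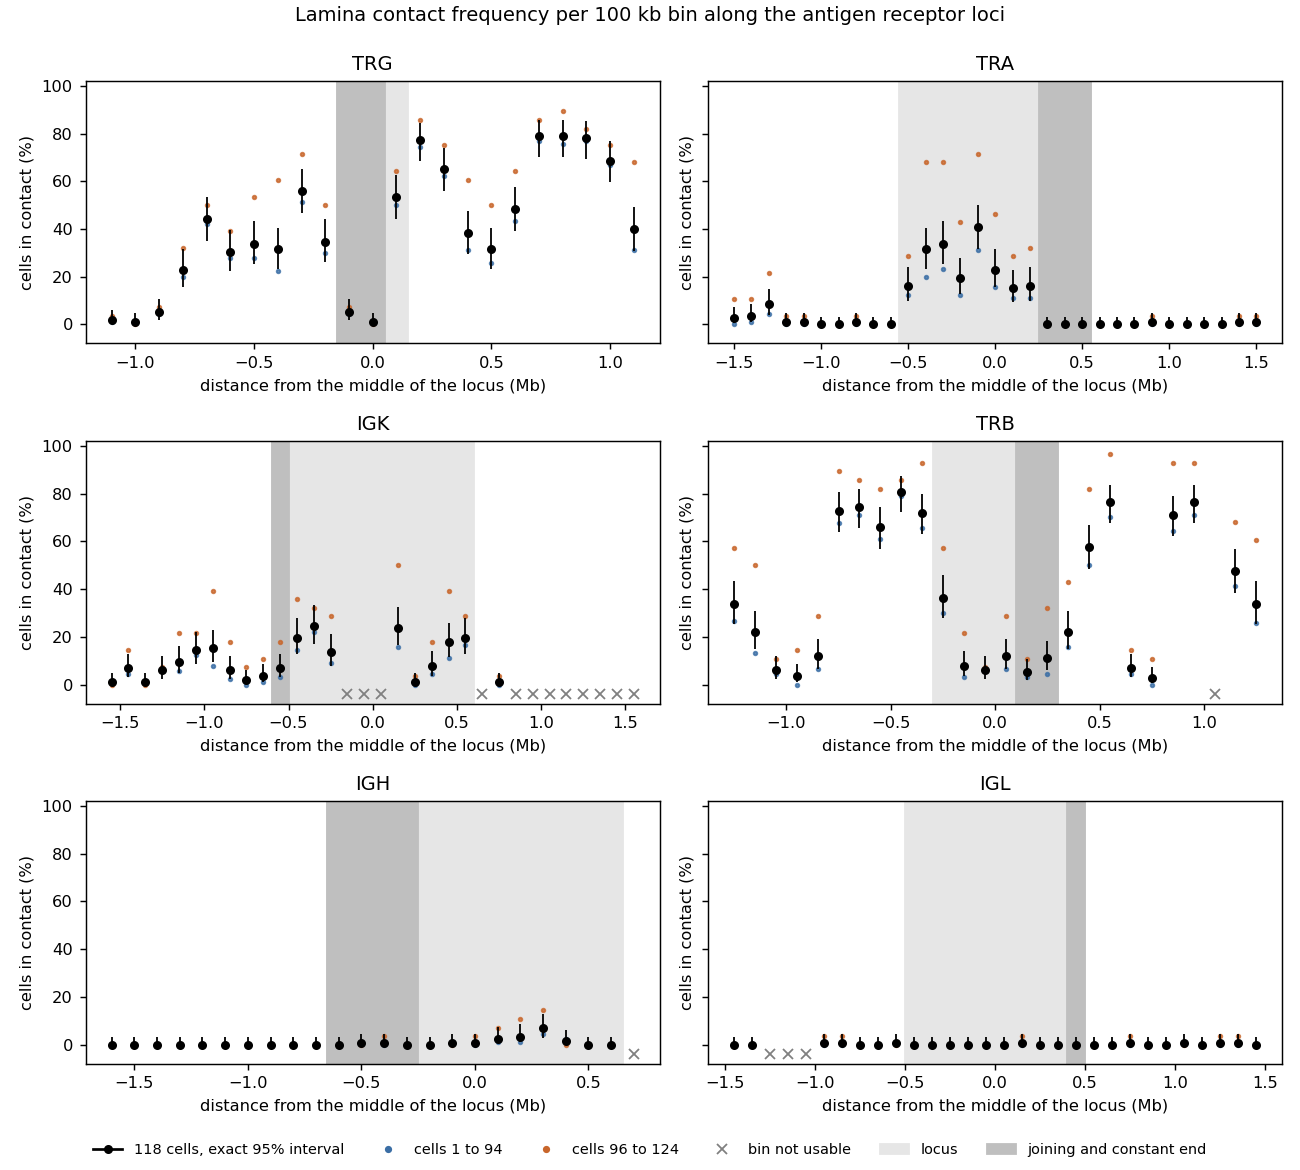
Contact frequency of each 100 kb bin (black, with exact 95% intervals over 118 cells) against the distance in Mb from the middle of each locus. Light grey marks the locus and dark grey its joining and constant end, coloured points give both sets of cells by sample number, and crosses mark bins that were not usable. TRB and the constant end of TRG lie in a gap between bins contacted more often, and the variable part of TRA is raised between rarely contacted bins. The black points of IGH and IGL stay below 7%.

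Of the 15 pairs of loci, 10 differed by a two-sided paired sign-flip permutation test over cells with Benjamini-Hochberg adjustment over the 15 pairs. IGH and IGL were lower than each of the other 4 loci, by 11.6 to 19.7 percentage points (adjusted p = 1.87e-05 for each, the smallest that 100000 resamples can give before adjustment being 1e-05). IGH exceeded IGL by 1.28 points ± 4.35 (adjusted p = 0.00105), in 14 cells against 1 cell, a call lost in cells 96 to 124 (2.66, adjusted p = 0.119) and at a contact value of 2 (0.130, adjusted p = 0.535). TRG minus TRB was 6.78 ± 26.4 (adjusted p = 0.0118), but -2.38 in cells 96 to 124 (adjusted p = 0.765). TRG minus TRA was 1.98 points ± 26.9 (adjusted p = 0.433), but it was called in opposite directions in the sets, at 6.09 in cells 1 to 94 (adjusted p = 0.044) and -11.3 in cells 96 to 124 (adjusted p = 0.0222). IGK minus TRA was -2.92 ± 25.2 (adjusted p = 0.246), and IGK minus TRB was 1.88 ± 23.3 (adjusted p = 0.425), a difference that turned and was called at a contact value of 0.5 (-6.45, adjusted p = 0.0293) and with 50000 reads per cell (-5.25, adjusted p = 0.0324). The high rank of TRG rests on bin 38400001 to 38500000, of which 10 kb overlap the locus and which was in contact in 63 of the 64 cells with any TRG contact. With only bins that lie wholly inside, TRG was at 0.847% and below IGK, TRA and TRB, and its differences from IGH and IGL were -0.770 and 0.742 points (adjusted p = 0.664 and 1).

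Over all 118 cells, the 6 loci were in contact less than the rest of their own sequence in the same cells. The difference was 30.6 percentage points for IGH, as IGH minus the rest of chromosome 14 was -30.6 ± 10.7 and was negative in 118 of 118 cells. TRB minus the rest of chromosome 7 was -23.0 ± 18.7, negative in 105 cells, and TRG was at -16.2 ± 19.2, negative in 104. IGK minus the rest of chromosome 2 was -20.1 ± 17.2, negative in 101 cells. TRA minus the rest of chromosome 14 was -13.9 ± 21.1, negative in 90 cells. IGL minus the rest of sequence 22:9 was -0.679 ± 1.25, negative in 53 cells and equal in 64, since that sequence was itself at 0.763%. Each had an adjusted p = 1e-05 over 6 tests by the sign-flip permutation test. Within cells 96 to 124 alone, TRA minus chromosome 14 was -0.974 points (adjusted p = 0.818) and IGK minus chromosome 2 was -8.72 (adjusted p = 0.0611). The call for IGL was lost at a contact value of 0.5 (-0.534, adjusted p = 0.231) and without bins under 3 reads, an alternative added after the data were seen (-0.129, adjusted p = 0.201).

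**Figure D2:**
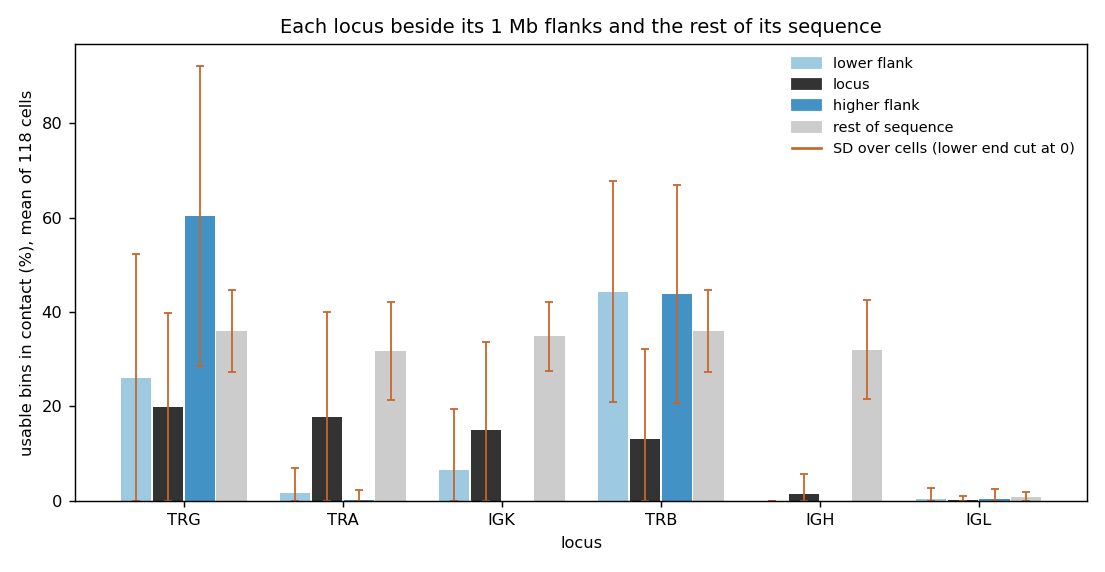
Mean percentage of usable bins in contact (118 cells, lines give the SD over cells, cut at 0) for each locus in black, its lower and higher 1 Mb flank in blue and the rest of its sequence in grey. TRB at 13.0% stands between flanks at 44.3% and 43.8%, TRA at 17.8% between flanks at 1.69% and 0.254%, and flanks with fewer than 3 usable bins are not drawn.

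TRB, the locus of the T cell receptor beta chain, formed a gap between flanks with more contact. Its share was 13.0% ± 19.1 per cell, from 0% through a median of 0% to 83.3%, against 44.3% ± 23.4 in the lower flank and 43.8% ± 23.1 in the higher flank. TRB minus the lower flank was -31.3 ± 22.2 points and negative in 100 of 118 cells, and TRB minus the higher flank was -30.8 ± 21.9 and negative in 104 (adjusted p = 1.67e-05 for each over 10 locus sides, sign-flip permutation test). The gap was present in both sets of cells. The locus was at 8.89% and the flanks at 39.6% and 38.0% within the lower-numbered set, against 26.2%, 59.6% and 62.3% within the other.

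Along TRB the frequency fell in a step. The 5 bins from 141500001 to 142000000 just below the locus were at 66.1 to 80.5%, and 1 of them, 141800001 to 141900000, was the only flank bin of any locus at 80% or more. The next bin, 142000001 to 142100000, which holds the first V segments, was at 36.4% (43 cells, interval 27.8 to 45.8%). From 142100001 to 142600000, which holds the remaining V segments, PRSS1 and PRSS2 and the D, J and C segments, frequencies were 5.08 to 11.9%. Beyond the locus they rose again, with 22.0% at 142600001, 57.6% at 142700001 and 76.3% at 142800001. The genes next to the locus in gene order are MGAM2 and PRSS58 below, and EPHB6, an ephrin receptor, and TRPV6, a calcium channel, above.

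Single cells showed the same step. Of 85 cells in contact at 141900001, 40 were also in contact in the first TRB bin and 45 were not, whereas 3 cells were in contact in the TRB bin alone. Of the 43 cells in contact in that first bin, 7 were in contact in the second. The following counts use stretches chosen after their values were seen and are descriptions. In 52 cells more than 50% of the bins were in contact both in the stretch from 141500001 to 142000000 and in that from 142700001 to 142900000. No bin between 142100001 and 142600000 was in contact in 29 of these cells, some were in 23, and all were in 0. Contact between the stretches with neither side above 50% was seen in 1 cell.

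A second gap lay in the higher flank of TRB. Bins 142900001 and 143000001 were in contact in 8 and 3 cells, at 6.78% and 2.54%, between neighbours at 76.3% and 71.2%. Of 48 cells with more than 50% of the bins in contact on both sides of it, 41 had none within. This gap lies outside the receptor genes. Low bins also lay in the lower flank, with 141200001, 141300001 and 141400001 at 5.93, 3.39 and 11.9%, between neighbours at 22.0% and 72.9%. Bins as low as those of TRB were thus not particular to TRB in this region.

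TRG, the locus of the T cell receptor gamma chain and the shortest of the 6, also lay in a gap. Bins 38200001 to 38300000 and 38300001 to 38400000, which hold the C genes, the J segments and most V segments, were in contact in 6 cells (5.08%, interval 1.89 to 10.7%) and 1 cell (0.847%, 0.0215 to 4.63%). The bin below them was at 34.7% and the bin above, at the edge of the locus, at 53.4% (63 cells, 44.0 to 62.6%). The following bin reached 77.1% and bins 39000001 and 39100001 reached 78.8%. AMPH, which encodes the endocytic protein amphiphysin, is the next gene above TRG, and STARD3NL, which encodes a protein of late endosomes, the next below.

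Against the higher flank, TRG was lower by a wide margin, with TRG minus the flank at -40.6 ± 24.9 points, negative in 105 of 118 cells and positive in 0 (adjusted p = 1.67e-05). Against the lower flank it was -6.33 ± 23.9, negative in 58 and positive in 34 (adjusted p = 0.00626, sign-flip permutation test), and this call was lost in cells 1 to 94 (-4.26, adjusted p = 0.135), with 50000 reads per cell (-4.53, adjusted p = 0.0657) and at a contact value of 2 (-3.36, adjusted p = 0.0833), and with flanks of 2 Mb the difference was 2.32 points (adjusted p = 0.273). It was larger in cells 96 to 124 (-13.0, adjusted p = 0.00383), with flanks of 0.5 Mb (-17.5, adjusted p = 1.67e-05) and with the 1 bin wholly inside the locus (-25.3, adjusted p = 1.43e-05). Of 41 cells in contact at 38100001, just below the locus, 4 were in contact in the first TRG bin. By stretches chosen after their values were seen, 34 cells had more than 50% of the bins in contact on both sides of the 2 bins. No contact in either bin was seen in 30 of them, and in 112 of all 118 cells.

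TRA, which carries the alpha chain segments and, within them, the delta chain locus TRD, was raised above its surroundings. Its share was 17.8% ± 22.2 per cell, from 0% through a median of 9.09% to 72.7%. The lower flank was at 1.69% ± 5.28 and the higher flank at 0.254% ± 2.05. TRA minus the lower flank was 16.1 ± 20.7 points, positive in 63 of 118 cells and negative in 2, and TRA minus the higher flank was 17.5 ± 22.0, positive in 63 and negative in 0 (adjusted p = 1.67e-05 for each, sign-flip permutation test). With flanks of 2 Mb the difference to the lower side was -1.48 points (adjusted p = 0.485), so the rise holds against the nearest 1 Mb. Below TRA lie METTL3, which encodes an RNA methyltransferase, and SALL2, a zinc finger factor, and above it lies DAD1, which encodes a subunit of the oligosaccharyltransferase.

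The contacts of TRA lay in the bins of its variable part. The 8 bins from 22000001 to 22800000 were at 15.3 to 40.7%, highest at 22400001 (48 cells, 31.7 to 50.1%), followed by 22200001 at 33.9% and 22100001 at 31.4%. The first of these bins overlaps the locus by 10 kb. The 3 bins from 22800001 to 23100000, in which lie the D, J and C segments of TRD and the J and C segments of TRA, had no contact in any of the 118 cells, which allows a frequency of up to 2.54% for each bin by a limit of 3 contacts and of up to 3.08% by the exact interval (counting error only). The last 5 bins of the lower flank had 1 contact in 118 cells together.

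Neighbouring bins at both ends of the V part showed where the contacts stopped, in whole bins. The bin at the lower end overlaps the locus by 10 kb, so the stop there is not placed at the first V segment. In 19 cells bin 22700001 was in contact and in 0 of them the next bin was, and of the 19 cells in contact at 22000001 none was in contact in the bin below. Pooled over cells, 3835 reads stood against 5544 expected in the V part, a ratio of 0.692, and 267 against 2497 at the constant end, a ratio of 0.107. Depth was similar on both sides, since a value of 1 stood for 4.49 to 6.68 reads in the bins of the V part and for 6.09 to 7.79 reads at the constant end in the median cell.

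Cells used the V part of TRA to different extents. There was no contact in 55 cells and contact in 63, and 25 cells had more than 50% of the 8 bins in contact, 2 of them all 8. The longest run within the locus spanned 0.8 Mb, 13 cells had a run of at least 5 bins and 21 had only single bins. All 23 cells in contact at 22300001 were also in contact at 22400001. The share of the V part was 17.1% ± 26.8 in cells 1 to 94, where 39 of 90 cells had any contact, and 48.2% ± 30.4 in cells 96 to 124, where 24 of 28 did. All 3838 usable bins at 15 to under 45% had mean frequencies of 25.4% and 41.4% in these sets, which stand beside the values of TRA as a description with no test.

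**Figure D3:**
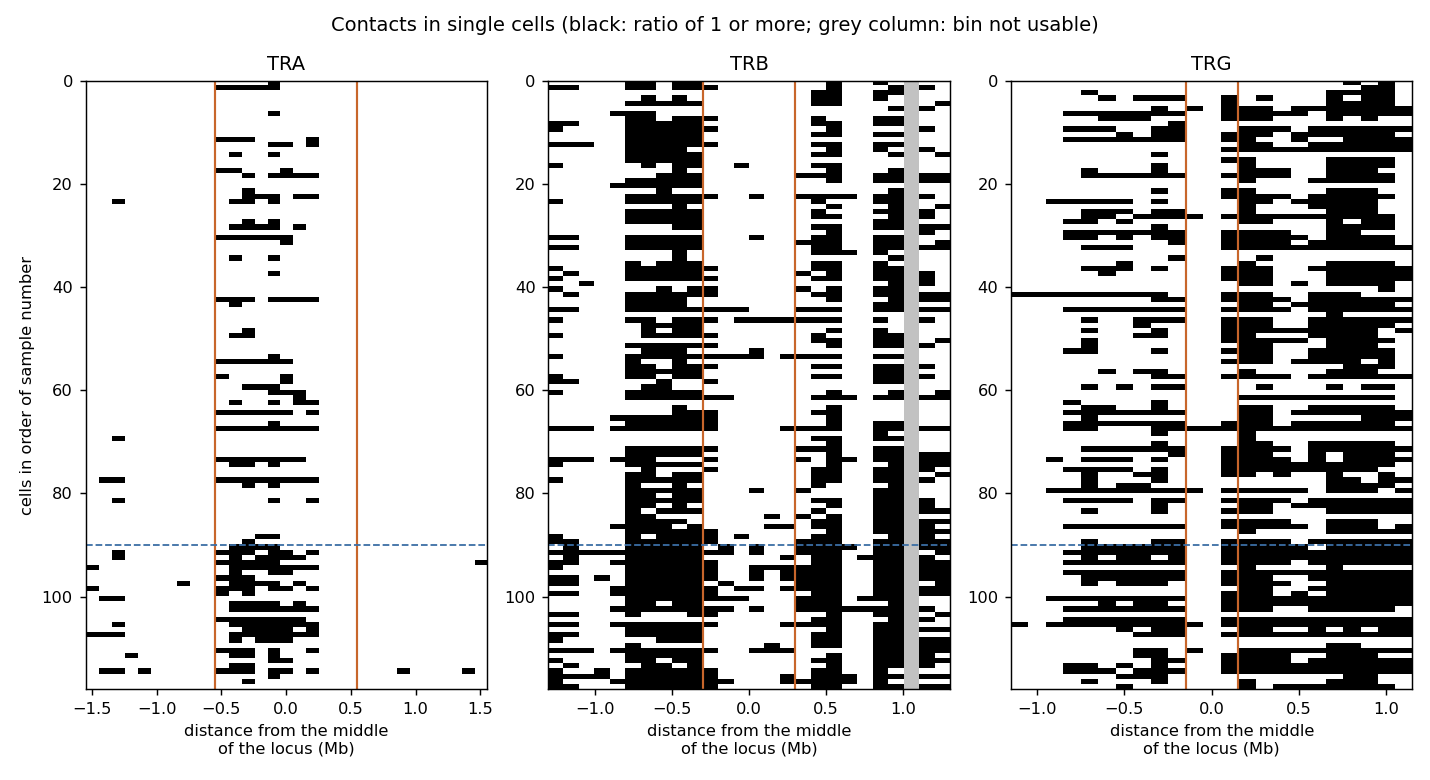
Contacts of single cells (rows, in order of sample number) along TRA, TRB and TRG with their 1 Mb flanks, with black for a ratio of 1 or more and a grey column for a bin that was not usable. Orange lines bound the bins that overlap the locus and the dashed line separates cells 1 to 94 from cells 96 to 124. Contacts in TRA stop at the lower orange line and before the constant end, and few contacts cross TRB or the first 2 bins of TRG.

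IGK, the kappa light chain locus, held intermediate and low frequencies at low depth. Its usable bins were at 0.847 to 24.6% and its share was 14.9% ± 18.8 per cell, from 0% through a median of 11.1% to 77.8%, with no contact in 52 cells. IGK minus the lower flank, at 6.44% ± 13.1, was 8.44 ± 14.9 points, positive in 61 cells and negative in 10 (adjusted p = 1.67e-05, sign-flip permutation test). Within the lower-numbered set it was 6.63 points, and 14.2 within the other. The nearest genes below are EIF2AK3, which encodes the stress kinase PERK, and RPIA, which encodes an enzyme of the pentose phosphate pathway. The higher flank held 1 usable bin and was not tested.

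The V segments of human IGK form a pair of near-identical inverted copies, and reads that fit both cannot be placed with certainty. In 4 of the 9 usable bins a value of 1 stood for under 1 read in the median cell, so that a single read makes a contact there, and in 7 it stood for under 3 reads. Without the bins under 3 reads, an alternative added after the data were seen, 2 IGK bins were left, their share was 13.1%, and IGK minus the lower flank was 6.04 ± 23.2 points (adjusted p = 0.00709). Bin 89200001, in the V segments next to the constant gene and with 4.06 reads behind a value of 1, was at 19.5% (23 cells, 12.8 to 27.8%). Bin 89100001, which holds IGKC and the J segments, was at 6.78% (8 cells, 2.97 to 12.9%). In the copy farther from IGKC, bins 89800001, 90100001 and 90200001 were at 23.7, 17.8 and 19.5% with 1.25, 1.25 and 1.16 reads behind a value of 1. The other usable bins of that copy, 89900001 and 90000001, were at 0.847 and 7.63%, with 0.0891 and 0.445 reads. Pooled ratios over all cells were 0.578 in the V part, 0.241 at the constant gene and 0.260 in the lower flank.

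IGH, the heavy chain locus, was close to free of contact. Its last bin is also the last usable bin of chromosome 14, so it has no usable higher flank. Over its 13 bins the share was 1.37% ± 4.22, from 0% through a median of 0% to 23.1%, and 104 of 118 cells had no contact. All 10 bins of the lower flank, which ends at CRIP1 and TMEM121, had 0 contacts in 118 cells. With a flank at 0 in every cell the difference cannot be negative, and a value of 1 stood for 4.24 to 5.36 reads in the flank and for fewer in most IGH bins, so no rise over the flank is read from it.

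The few contacts of IGH clustered in the V segments. Bin 106900001 had 8 cells (6.78%, 2.97 to 12.9%), with 4 cells at 106800001, 3 at 106700001 and 2 at 107000001. The 4 bins of the constant end from 106000001 to 106400000, which hold the C genes from IGHM to IGHA2 and the J and D segments, had 2 contacts in all. The last 2 bins of the V segments, nearest the chromosome end, had none. Pooled ratios were 0.102 in the V part, 0.0504 at the constant end and 0.0308 in the lower flank. Depth was lower than in most bins, since a value of 1 stood for 1.44 to 4.56 reads in the median cell, against 5.63 reads in the median bin, and a lack of contact is less sharply resolved at the constant end, where 2 of 4 bins had under 3 reads.

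IGL, the lambda light chain locus, had 1 contact in 1 cell over its 10 bins. That contact lay at 22900001, with a value of 1.08 in a cell of the set 96 to 124. IGL lies on sequence 22:9, the derivative chromosome 22 of the Philadelphia translocation, whose first usable bin starts at 16000001, and its positions were taken as those of chromosome 22. BCR, the chromosome 22 partner of that translocation, lies above IGL in gene order, so the higher flank can hold sequence of chromosome 9. The lower flank was at 0.363% ± 2.26 and the higher flank at 0.339% ± 2.24. IGL minus the lower flank was -0.278 ± 2.45 points (adjusted p = 0.275) and IGL minus the higher flank -0.254 ± 2.43 (adjusted p = 0.499). Pooled over cells, 274 reads stood against 6813 expected, a ratio of 0.0402, against 0.0400 for the rest of 22:9, and 57.2 reads were expected over the locus in the median cell.

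The position within a locus was compared over all 6. Bins that hold only the V part were in contact more than bins that overlap the joining and constant end, which can hold V segments too, in 5 of 6 loci over all 118 cells, by a sign-flip permutation test adjusted over 6 tests. The difference was 24.5 ± 30.6 points in TRA, positive in 63 cells and negative in 0, and 50.4 ± 50.0 in TRG, positive in 62 and negative in 1 (adjusted p = 3e-05 for each). The constant end of TRA was at 0 in every cell, so its difference could not be negative. For TRG the only bin with V segments alone is the one that overlaps the locus by 10 kb, so this difference is largely one between TRG and its edge. It was 9.11 ± 26.8 in IGK (adjusted p = 0.00104), 7.42 ± 25.0 in TRB (adjusted p = 0.00288) and 1.37 ± 5.84 in IGH, positive in 12 cells and negative in 2 (adjusted p = 0.0122). In IGL it was 0.0942 ± 1.02 (adjusted p = 1). The call of IGH was kept under 3 of 9 alternatives, and was lost at contact values of 0.5 and 2, on thinning, without shallow cells and in both sets of cells (0.833, adjusted p = 0.178, and 3.08, adjusted p = 0.125). That of IGK was lost at a contact value of 0.5 (5.61, adjusted p = 0.0876), with 50000 reads per cell (0.115, adjusted p = 1) and in cells 96 to 124 (11.6, adjusted p = 0.214). That of TRB was lost at a contact value of 2 (2.54, adjusted p = 0.0959) and in cells 96 to 124 (7.14, adjusted p = 0.429). The V bins of TRB other than the first were at 5.93 to 11.9% and the bins of its constant end at 5.08 and 11.0%. The bin at 11.0% overlaps TRB by 20 kb only, and bin 38200001 at the constant end of TRG overlaps TRG by 30 kb only.

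**Figure D4:**
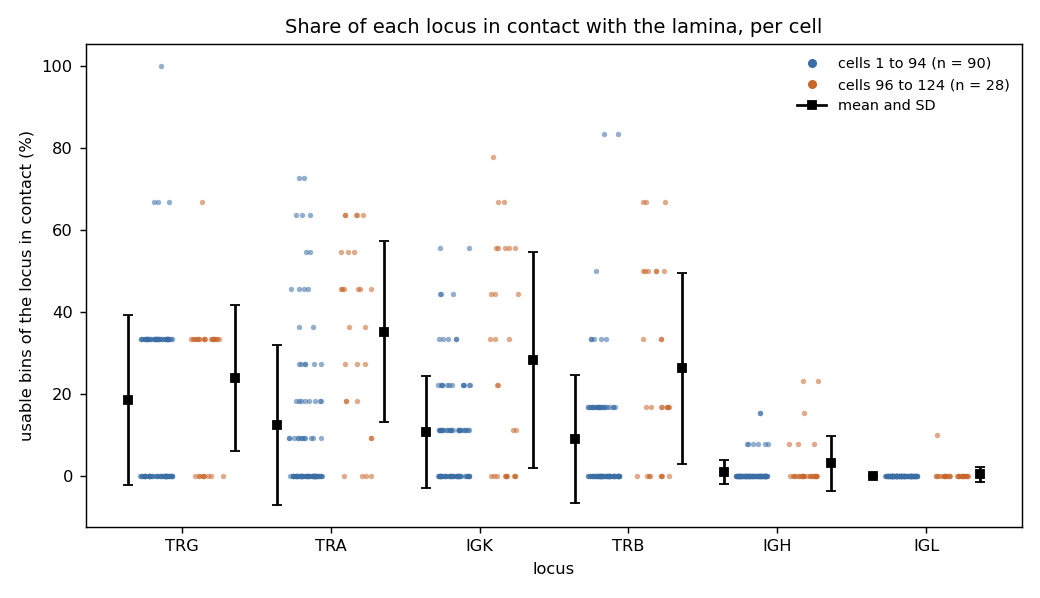
Percentage of the usable bins of each locus in contact in each of 118 cells (points, spread sideways only), with cells 1 to 94 in blue and cells 96 to 124 in orange. Squares and lines give the mean and SD of each set. Means are higher in cells 96 to 124 at all 6 loci, for example 35.1% against 12.4% for TRA, and most cells are at 0 for IGH and IGL.

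Whether a cell contacted several loci together was described by correlations over the 118 cells once each cell's overall contact share had been regressed out. Points share the depth of the cell, so no p is given. Over the 6 pairs of TRA, TRB, TRG and IGK, r ranged from -0.00043 for TRG and TRB, which lie on the same chromosome, to 0.185 for IGK and TRA. The latter was -0.0906 within the 90 cells numbered 1 to 94 and 0.322 within the other 28. TRA and IGH, both on chromosome 14, were at 0.143. Without removal of the contact share, r of a locus with that share was 0.369 for TRB, 0.308 for TRA, 0.294 for IGK and 0.250 for TRG, and -0.0503 for IGH. Within the lower-numbered and the higher-numbered set it was 0.267 and 0.349 for TRB, 0.180 and 0.208 for TRA, 0.113 and 0.442 for IGK, 0.258 and 0.0361 for TRG, and -0.273 and 0.0702 for IGH.

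The bins elsewhere that were most like each locus over the 118 cells, among 8875 to 8946 bins at 20 to 80%, reached r of 0.438 for IGK (chromosome 11 from 20600001), 0.421 for TRB (chromosome 7 from 152600001), 0.409 for TRA (chromosome 3 from 33900001) and 0.349 for TRG (chromosome 5 from 95200001). For IGH they were the neighbours 14000001 and 13900001 of chromosome 4 at 0.440 and 0.421, and for IGL, with its single contact, r was 0.184. The most negative r were of similar size, at -0.423 for IGK and -0.481 for TRB, and no likeness is read from these values.

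Genes that act with the receptor loci were listed as 15 genes, whose bins were likewise placed from general knowledge of hg19. No contact in any cell was seen in all bins of 10 of them, and 4 had a bin in contact in more than 1 cell. By bins, 12 of 20 had no contact, against 22.3% of all usable bins. The bins of the CD3 genes CD3E, CD3D and CD3G, of CD247 and of CD79A and CD79B, which encode the signalling chains of the T and B cell receptors, had 0 contacts in 118 cells, as had PTCRA, the chain that pairs with beta in precursors. DNTT, which adds bases at V(D)J junctions, and DCLRE1C, which opens the hairpin ends, also had 0. The recombinase genes lie side by side, and the bin shared by RAG1 and RAG2 was in contact in 20 cells (16.9%, 10.7 to 25.0%) and the next RAG1 bin in 11 (9.32%, 4.75 to 16.1%). LIG4, a ligase of end joining, was highest with 75 cells (63.6%, 54.2 to 72.2%). Its partner XRCC4 spans 4 bins at 12.7 to 49.2%, and XRCC5, a subunit of the end-binding protein Ku, had 1 contact. In the lower-numbered and the higher-numbered set the LIG4 bin was at 65.6% and 57.1%, and the shared RAG bin at 14.4% and 25.0%.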

How the data were processed

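Lamina contacts were measured by single-cell DamID. The authors deposited 1 table of observed over expected reads, a ratio for each bin of 100 kb in each cell. The sources used here do not state what the expected part is. The submitters' processing notes name cutadapt, Bowtie2 2.1.0 and hg19. Samples 33, 34, 44, 86, 95 and 120 were not analysed here, and no 2 cells had identical values (0 pairs).

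Each value above 0 was a whole number of reads scaled by 1 factor per bin and 1 per cell (100% whole to a tolerance of 0.02 reads), and the factors give the reads behind a value of 1. A contact was a value of 1 or more. Differences in contact share within cells were tested two-sided with 100000 sign flips over cells and Benjamini-Hochberg adjustment within families of 10 locus sides, 6 chromosomes, 15 pairs and 6 ends at a threshold of 0.05. A side was tested with at least 3 usable bins. The scripts were tested on simulated data. Counting intervals and limits cover counting error only, and reads carry no molecular identifiers.

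Named items were the loci, their bins and flanks, 15 genes placed by position, and for each locus the most correlated bins over 5 Mb away or on another sequence. Members, lists and tests were chosen with earlier results of these data known. Alternatives were the contact value (0.5 and 2), depth, sets of cells, bin membership, usable bins and flank size. Python 3.11.15, numpy 2.4.6, pandas 2.3.3 and scipy 1.17.1 were used. Unfused Dam was not analysed here, and DNA accessibility can add to the signal.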

Additional observations from a re-analysis of the deposited data

How the results depend on the processing

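Of 405 values of 43 results under 11 alternatives, 357 kept their side of the threshold, or, for the contact shares, stayed within 1 SD over cells. Among these 357, differences called both times also kept their direction. Those never called could change sign and still count, as did IGK minus TRA at a contact value of 2 (2.59), IGK minus TRG in cells 96 to 124 (4.37) and TRB minus TRA on thinning (0.181). The SD of the shares exceeded the mean at all 6 loci, so even a fall to no contact would have counted as kept. TRG counted so at 0.847% with bins wholly inside. TRB against both flanks, TRG against its higher flank, TRA against its higher flank and IGK against its lower flank kept their calls under every alternative run. At a contact value of 0.5, the IGL share moved to 1.27%, calls were lost for IGL minus sequence 22:9 (-0.534), TRG minus TRB (4.38) and the ends of IGK (5.61) and IGH (1.46), gained for IGK minus TRG (-10.8), IGK minus TRA (-10.0) and the ends of IGL (1.41), and IGK minus TRB turned to -6.45 and was called (adjusted p = 0.0293). At a contact value of 2, TRG minus its lower side (-3.36), IGH minus its lower side (0.130), IGH minus IGL (0.130) and the ends of TRB (2.54) and IGH (0.188) lost their calls, and IGK minus TRB (4.94) gained one. Thinned to 50000 reads (109 cells, 9 left out), TRG minus its lower side (-4.53), TRG minus TRB (5.35) and the ends of IGK (0.115) and IGH (1.17) lost their calls, IGK minus TRG (-10.6) and IGK minus TRA (-5.07) gained one, and IGK minus TRB turned to -5.25 and was called (adjusted p = 0.0324). Without the 14 cells of under 3 reads, IGK minus TRG was called (-5.66) and the ends of IGH were not (1.01). In cells 1 to 94, TRG minus its lower side (-4.26) and the ends of IGH (0.833) lost their calls, and IGK minus TRG (-7.78) and TRG minus TRA (6.09) gained one. In cells 96 to 124, fewer cells, IGK minus chromosome 2 (-8.72), TRA minus chromosome 14 (-0.974), IGH minus IGL (2.66) and the ends of IGK (11.6), TRB (7.14) and IGH (3.08) lost their calls, TRG minus TRB changed sign with no call (-2.38), and TRG minus TRA was called in the opposite direction to that in cells 1 to 94 (-11.3, adjusted p = 0.0222). With bins wholly inside, which leaves 1 TRG bin, IGK minus TRG (14.0), TRG minus TRB (-12.5) and TRG minus TRA (-19.1) changed sign and were called (adjusted p = 1.67e-05 for each), TRG minus IGH changed sign with no call (-0.770), TRG minus IGL (0.742) lost its call and TRB minus TRA (-6.57) gained one. With bins at 0 in every cell kept, IGK minus TRG (-7.60) and IGK minus TRA (-5.62) were called. With flanks of 2 Mb, TRG (2.32) and TRA (-1.48) minus the lower side changed sign. With bins under 3 reads left out, added after the data were seen, IGL minus sequence 22:9 (-0.129) lost its call and IGK minus TRG (-6.64) gained one. The causes of these changes were not tested, also where an alternative left fewer bins or cells. Depth limits IGK most, and each p-value has the cell as its unit, with regions compared within a cell. Cells could not be paired across groups because the labels give 1 group, so sample numbers pair no cells.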
